A study of Mus musculus with 12 samples.

Results

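Wnt proteins are secreted lipid-modified signals, and Frizzled proteins are the membrane receptors that bind them. With the co-receptors Lrp5 and Lrp6, a Frizzled passes a Wnt signal to beta-catenin, the canonical branch; with Ror1, Ror2 or Ryk, Wnts act through routes that do not need beta-catenin and steer cell movement and polarity. Wls carries Wnts to the cell surface. In the mouse palate, Wnt5a and its receptor Ror2 are known for directing the migration of mesenchymal cells, and loss of Fzd1 together with Fzd2 is known to leave the palate open.

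The 35 genes described here are all those of the deposited files whose symbol begins with Wnt or Fzd and a digit, together with Ror1, Ror2, Ryk, Lrp5, Lrp6 and Wls. Within the 24391 genes of each file, membership was set by symbol. They comprise 19 ligands, 10 Frizzled receptors, 2 co-receptors, 3 alternative receptors and Wls. The samples were anterior hard palates dissected from C57BL/6 mouse embryos of 2 ages, embryonic day 14.5 (written E14.5) and embryonic day 16.5 (E16.5). The mutants were Shox2Cre;R26RFgf8, in which a Cre made from Shox2 switches on an Fgf8 transgene. The growth factor Fgf8 can be made from the transgene only in cells of the Shox2 lineage, and the gene's own copies are not limited in this way. Controls are labelled wild type. The 4 groups, E14.5 mutant, E14.5 control, E16.5 mutant and E16.5 control, held 3 libraries each, 12 in total. Whether 1 embryo or several went into a library is not given in the labels, and the p-values rest on the scatter between such libraries, which may be technical. The question was how Fgf8 in this lineage alters the ligands and receptors of the Wnt pathway at each age.

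Total counts ranged from 76417891 to 125996587 per library. Levels are given in CPM, the share of a library's counts on the usual CPM scale after TMM scaling (trimmed means, which put libraries on 1 scale), and 3 counts correspond to 0.0234 to 0.0400 CPM. A gene was called when the edgeR quasi-likelihood test gave a Benjamini-Hochberg adjusted p under 0.05 over all genes tested. Fgf8 lay at 10.5 to 11.1 CPM in E14.5 mutants, against 0.249 to 0.423 CPM in E14.5 controls (edgeR adjusted p = 3.93e-07), and at 14.0 to 17.8 CPM in E16.5 mutants, against 0.257 to 0.462 CPM in E16.5 controls (edgeR adjusted p = 6.33e-06). E16.5 mutant libraries 1 and 3 stood apart: a list of 12 retinal genes summed to 172, 17.5 and 100.5 CPM in E16.5 mutants 1, 2 and 3, against 37.5 to 40.6 CPM in the E16.5 controls. Fgf15, one of those genes, lay at 40.4, 0.347 and 21.2 CPM in the same 3 mutants, and 8 neuronal genes summed to 228, 31.6 and 128 CPM there, against 22.5 to 26.7 CPM in E16.5 controls. The E16.5 calls of the ligands and receptors, and the counts of the pathway lists, are therefore also given without mutant libraries 1 and 3; only mutant 2 is then left at that age, and its scatter is assumed to match that of the controls. Lower RNA in bulk tissue can mean fewer cells of a type or less RNA per cell, and these cannot be told apart here.

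Of the 35 genes, 33 had enough counts to be tested in each comparison. Wnt1, known for the midbrain, had at most 6 counts in any library and none at E16.5. Wnt8a had at most 12 counts, in an E16.5 mutant library. Wnt8b and Wnt9b were tested but reached no more than 0.268 and 0.587 CPM.

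At E14.5, the ligand Wnt5a stood out with a rise of 3.97-fold in the mutants, and 5 other genes changed with smaller folds, from 0.670 for Fzd5 to 1.39 for Fzd10. Wnt5a, Fzd10 and Ror1 rose, and Wnt9a, Fzd5 and Lrp5 fell. That is 6 of the 33 tested, or 18.2%, where 7.52% of all 16650 genes tested were called at this age, 2.95% higher and 4.57% lower. Over the 33, the median log2 fold change was 0.03, against 0.01 for all genes tested.

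Wnt5a, a ligand best known for signalling without beta-catenin, lay at 166, 184 and 205 CPM in the E14.5 mutant libraries, against 47.8, 34.3 and 57.5 CPM in the E14.5 controls. The lowest mutant was far above the highest control, and the log2 fold change was 1.99 (SE 0.16, edgeR adjusted p = 4.92e-05). Leaving out any 1 of the 6 libraries kept the call, with log2 fold changes of 1.81 to 2.17. Of the 9 palate mesenchyme markers, 4 rose at E14.5, Osr2, Meox2, Prrx1 and Pax9, and none was at 0. Their sum was 2414 to 2779 CPM in E14.5 mutants, against 1496 to 1648 CPM in E14.5 controls, but most of that difference was Prrx1, with 1074, 1111 and 1329 CPM, against 231, 203 and 264 CPM. The other 8 summed to 1340, 1426 and 1450 CPM in E14.5 mutants, against 1348, 1293 and 1384 CPM in E14.5 controls, with overlap. The part of mesenchymal RNA in the Wnt5a result was not tested.

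Wnt9a, a ligand known from developing joints and bones, lay at 17.5, 18.5 and 17.3 CPM in E14.5 mutants, against 29.1, 21.6 and 24.1 CPM in E14.5 controls. The groups did not overlap, and the log2 fold change was -0.49 (SE 0.11, edgeR adjusted p = 0.0223). Osteoblast markers fell in the same libraries: 9 of 10 fell, and their sum was 6329 to 7592 CPM in E14.5 mutants, against 13790 to 17130 CPM in E14.5 controls, with none at 0. The part of osteoblast RNA in the Wnt9a result was not tested.

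Among the receptors at E14.5, Fzd5, known for its role in the developing eye, lay at 13.1, 15.4 and 20.1 CPM in mutants, against 23.3, 21.7 and 27.4 CPM in controls (log2 fold change -0.58, SE 0.15, edgeR adjusted p = 0.0398). Fzd10 had 30.8, 32.4 and 33.7 CPM in mutants, against 19.0, 26.3 and 24.5 CPM in controls (log2 fold change 0.47, SE 0.11, edgeR adjusted p = 0.0281). The co-receptor Lrp5, known for its effect on bone mass, had 208, 206 and 225 CPM in mutants, against 277, 247 and 285 CPM in controls (log2 fold change -0.34, SE 0.07, edgeR adjusted p = 0.0155). For these 3 receptors the mutant and control ranges did not touch. Ror1, a receptor tyrosine kinase relative that binds Wnt5a, had 51.6, 51.1 and 57.4 CPM in mutants, against 39.9, 43.2 and 46.9 CPM in controls (log2 fold change 0.30, SE 0.08, edgeR adjusted p = 0.0385), again without overlap.

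Apart from Wnt5a, the E14.5 calls depended on which libraries were included. Without E14.5 mutant 1, or without E14.5 mutant 2, 1 of the genes was called, Wnt5a. Without E14.5 control 1 or E14.5 control 3, 2 were called. The highest adjusted p on leaving out a library was 0.0877 for Wnt9a, 0.135 for Fzd5, 0.0850 for Fzd10, 0.0780 for Lrp5 and 0.132 for Ror1, all with the direction kept. Wnt4, Wnt7b, Wnt16 and Fzd6 were higher in all mutants than in any control but missed the threshold (edgeR adjusted p = 0.139, 0.0668, 0.104 and 0.0840). Wnt11 and Fzd1 were lower in all mutants and also missed it (edgeR adjusted p = 0.371 and 0.154). How many of all genes tested had groups without overlap was not counted, so these are not read as near calls. The replicates numbered 3 have later sample records than the others, and with a term for them 10 genes were called at E14.5 in place of 6, the added ones being Wnt7b, Fzd1, Fzd6 and Fzd8 (edgeR adjusted p = 0.0326, 0.0214, 0.0424 and 0.0423). The authors' deposited table of DESeq2 results held the same 6 calls at E14.5 and 3 more, Wnt4, Wnt7b and Fzd6, all higher in mutants.

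**Figure D1:**
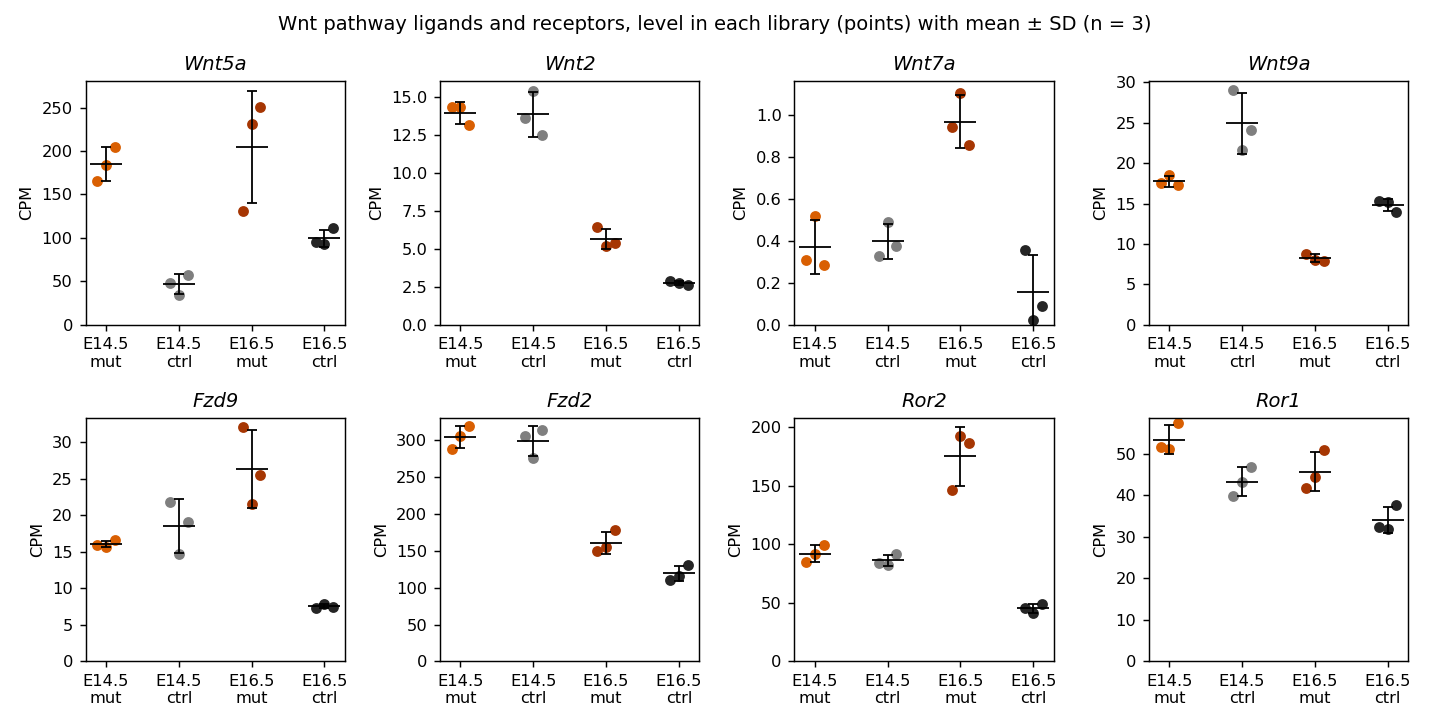
Level in CPM (vertical axes, from 0) of 8 ligands and receptors in each library (points), with the mean and SD of each group (n = 3); mut is mutant and ctrl is control. Wnt5a is high in mutants at both ages, while Ror2, Fzd9 and Wnt2 separate mutants from controls at E16.5 and overlap at E14.5.

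At E16.5 more of the family moved, and the receptor Ror2 led it with a rise of 3.93-fold in the mutants. Fzd9 rose 3.56-fold, Wnt2 2.09-fold and Wnt5a 2.08-fold, and Wnt7a, a scarce ligand, rose with a fitted fold of 6.29 that moved widely with the libraries used. Wnt3, Fzd2, Fzd4 and Ror1 also rose, and Wnt9a, Wnt4 and Wnt11 fell. These are 12 of 33 genes tested, or 36.4%, where 27.9% of all 17169 genes tested were called (12.2% higher and 15.7% lower), so the share lies not far above that of all genes. The median log2 fold change over the 33 was 0.06, against 0.01 for all genes. By role, 7 of 17 ligands tested, 3 of 10 Frizzleds and 2 of 3 alternative receptors were called, and neither co-receptor nor Wls was.

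Ror2, a receptor tyrosine kinase for Wnt5a, lay at 147, 192 and 187 CPM in the E16.5 mutants, against 45.7, 41.2 and 48.9 CPM in the E16.5 controls. Every mutant exceeded every control by a wide margin (log2 fold change 1.97, SE 0.11, edgeR adjusted p = 9.16e-06), and mutant library 2, which lacked the retinal signal, was the highest. At E14.5 the same gene had 84.8, 91.7 and 99.5 CPM in mutants, against 83.9, 82.7 and 92.0 CPM in controls, with overlapping groups (edgeR adjusted p = 0.467). Ror1 had 41.7, 44.5 and 51.0 CPM in E16.5 mutants, against 32.5, 32.0 and 37.8 CPM in E16.5 controls (log2 fold change 0.45, SE 0.10, edgeR adjusted p = 0.00949). Its call was lost without E16.5 control 2 (edgeR adjusted p = 0.0554).

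Fzd9, a Frizzled known in mice for its role in bone formation, had 32.2, 21.5 and 25.5 CPM in E16.5 mutants, against 7.38, 7.90 and 7.42 CPM in E16.5 controls. The groups were far apart (log2 fold change 1.83, SE 0.15, edgeR adjusted p = 5.61e-05). Within the mutants, libraries 1 and 3 were the higher ones, and without them the log2 fold change was 1.52 (edgeR adjusted p = 2.92e-05). Fzd2 had 149, 156 and 178 CPM in E16.5 mutants, against 110.5, 116 and 131 CPM in E16.5 controls (log2 fold change 0.46, SE 0.09, edgeR adjusted p = 0.00664), with no overlap. Fzd4, the receptor through which Norrin acts on blood vessels, had 16.6, 14.8 and 17.2 CPM in E16.5 mutants, against 13.6, 13.2 and 13.5 CPM in E16.5 controls (log2 fold change 0.30, SE 0.09, edgeR adjusted p = 0.0410). All 8 endothelial markers rose at E16.5, with a sum of 328 to 419 CPM in mutants, against 233 to 250.2 CPM in controls and none at 0; their part in the Fzd4 result was not tested.

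Wnt2, a ligand known from lung and heart development, had 6.43, 5.20 and 5.42 CPM in E16.5 mutants, against 2.89, 2.78 and 2.64 CPM in E16.5 controls (log2 fold change 1.06, SE 0.16, edgeR adjusted p = 0.00147). The 3 mutant values lay close together and above all controls. Wnt5a had 131, 231 and 251 CPM in E16.5 mutants, against 95.4, 92.8 and 111 CPM in E16.5 controls (log2 fold change 1.06, SE 0.21, edgeR adjusted p = 0.00635). Mutant library 1 was well below the other two and still above every control. Of the 9 palate mesenchyme markers 6 rose at E16.5, with none at 0. Their sum was 1991, 2648 and 2882 CPM in E16.5 mutants 1, 2 and 3, against 1018 to 1173 CPM in E16.5 controls, and the order of the mutants came from Prrx1. The other 8 summed to 889, 768 and 921 CPM in E16.5 mutants, against 616, 610.2 and 672 CPM in E16.5 controls. Cartilage markers moved too, with 5 of 7 higher and 1 lower and sums of 486 to 729 CPM in E16.5 mutants, against 300.4 to 343 CPM in E16.5 controls. Nasal and ciliated epithelial markers went the other way, with 7 of 11 lower and 1 higher and sums of 688 to 1194 CPM in E16.5 mutants, against 1385 to 1481 CPM in E16.5 controls. The nasal gene Scgb1c1, which had too few counts to be tested, was at 0 in the mutants of both ages. The part of these cell types in the results for Ror2, Fzd9, Wnt2 and Wnt5a was not tested. Wnt3, an epithelial ligand needed for limb outgrowth, had 5.18, 7.88 and 5.82 CPM in E16.5 mutants, against 4.50, 3.94 and 4.22 CPM in E16.5 controls (log2 fold change 0.60, SE 0.17, edgeR adjusted p = 0.0344).

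Wnt7a, a ligand known for setting the back of the limb apart from the palm, was scarce, and in E16.5 controls 2 and 3 it was near the detection floor. It had 110, 83 and 72 counts in the E16.5 mutants, against 30, 2 and 8 counts in the E16.5 controls, or 0.944, 1.11 and 0.857 CPM against 0.358, 0.0225 and 0.0893 CPM. The groups did not overlap, but the controls spread widely (log2 fold change 2.65, SE 0.69, edgeR adjusted p = 0.0222), and without E16.5 control 3 the call was lost (edgeR adjusted p = 0.0757). The log2 fold change ran from 2.14 to 4.10 on leaving out 1 library, and the 2 counts of control 2 are below the floor of 3.

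Wnt9a, lower at both ages, had 8.80, 8.06 and 7.92 CPM in E16.5 mutants, against 15.4, 15.2 and 14.0 CPM in E16.5 controls (log2 fold change -0.82, SE 0.10, edgeR adjusted p = 0.000499). Osteoblast markers summed to 1026 to 1592 CPM in E16.5 mutants, against 5310 to 6398 CPM in E16.5 controls, with 8 of 10 lower and 1 higher; their part in the Wnt9a result was not tested. Wnt4, an epithelial ligand best known from kidney tubule formation, had 217, 286 and 270.0 CPM in E16.5 mutants, against 326, 319 and 346 CPM in E16.5 controls (log2 fold change -0.34, SE 0.10, edgeR adjusted p = 0.0351). Wnt11, a ligand of convergent extension movements, had 47.8, 67.6 and 56.8 CPM in E16.5 mutants, against 75.7, 80.0 and 72.6 CPM in E16.5 controls (log2 fold change -0.38, SE 0.11, edgeR adjusted p = 0.0327). In both Wnt4 and Wnt11, mutant library 1 was the lowest of the 6.

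Most of the genes called at E16.5 alone had overlapping groups at E14.5. Wnt2 had 14.4, 14.4 and 13.2 CPM in E14.5 mutants, against 13.7, 15.4 and 12.5 CPM in E14.5 controls. Fzd9 had 15.9, 15.7 and 16.6 CPM in E14.5 mutants, against 21.9, 14.7 and 19.1 CPM in E14.5 controls. Wnt7a had 0.309, 0.517 and 0.284 CPM in E14.5 mutants, against 0.326, 0.490 and 0.376 CPM in E14.5 controls. None of these 3 was called at that age (edgeR adjusted p = 0.967, 0.378 and 0.892). Fzd2 had 288, 306 and 319 CPM in E14.5 mutants, against 306, 275 and 314 CPM in E14.5 controls. Fzd4 had 18.6, 19.2 and 23.8 CPM in E14.5 mutants, against 19.99, 18.2 and 20.3 CPM in E14.5 controls, and Wnt3 had 1.37, 1.06 and 0.735 CPM, against 0.836, 0.693 and 0.987 CPM. Wnt4 and Wnt11 were the exceptions without overlap, Wnt11 having 22.98, 22.6 and 21.7 CPM in E14.5 mutants, against 25.9, 23.1 and 24.0 CPM in E14.5 controls.

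Ratios to the palate mesenchyme and osteoblast sums, chosen after the values were seen and with no test, depended on the markers. Per 1000 CPM of all 9 mesenchyme markers, Wnt5a gave 65.9, 87.3 and 87.2 CPM in E16.5 mutants, below the 92.6, 91.1 and 94.6 CPM of E16.5 controls, whereas at E14.5 it gave 68.7, 72.6 and 73.6 CPM in mutants, above the 30.3, 22.95 and 34.9 CPM of controls. Without Prrx1 in the sum, Wnt5a gave 147.5, 301 and 273 CPM in E16.5 mutants, against 155, 152 and 165 CPM in E16.5 controls, so that mutant 1 was lowest and the other two were highest. Ror1 was lower in mutants at both ages per 1000 CPM of all 9 markers, at most 20.96 CPM in E16.5 mutants and at least 31.4 CPM in E16.5 controls. Without Prrx1 it gave 46.95, 57.95 and 55.4 CPM in E16.5 mutants, against 52.7, 52.5 and 56.2 CPM in E16.5 controls, with overlap.

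Ror2 kept its direction at E16.5 in both ratios: per 1000 CPM of all 9 markers it gave 73.6, 72.6 and 64.8 CPM in E16.5 mutants, against 44.3, 40.5 and 41.7 CPM in E16.5 controls. Fzd9 gave 16.2, 8.12 and 8.84 CPM, against 7.16, 7.76 and 6.32 CPM, also without overlap. Wnt2 overlapped, at 3.23, 1.96 and 1.88 CPM in E16.5 mutants and 2.80, 2.73 and 2.25 CPM in E16.5 controls, and was higher in all mutants without Prrx1 in the sum. Per 1000 CPM of the osteoblast sum, Wnt9a, Wnt11 and Lrp5 were higher in mutants at both ages; Wnt9a gave 8.58, 5.70 and 4.97 CPM in E16.5 mutants, against 2.89, 2.64 and 2.19 CPM in E16.5 controls, since the osteoblast sum differed more between the groups than Wnt9a did.

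The replicate numbers were treated as possible pairs at E16.5 from the data, not from the labels. The calls given above come from fits without pairing. With the number as a block, 17 genes were called in place of 12. The added genes were Wnt7b, Fzd1, Fzd3 and Fzd6, lower in mutants, and Fzd7, higher in mutants (edgeR adjusted p with the block = 0.0350, 0.0130, 0.00749, 0.0291 and 0.00496; without it 0.0803, 0.0786, 0.320, 0.0649 and 0.141). Calls rose over all genes too: of 17169 tested, 6742 were called with the block and 4793 without it. The calls of Ror2, Fzd9, Fzd2, Wnt2, Wnt5a and Wnt9a held without any 1 library and without mutant libraries 1 and 3. Those of Wnt4, Wnt11 and Fzd4 were lost without mutant 1, mutant 3 or any 1 control (highest edgeR adjusted p = 0.107, 0.127 and 0.124), and that of Wnt3 without mutant 2, mutant 3 or any 1 control (0.122). Without mutant libraries 1 and 3 together, 7 were called, and Ror1, Wnt7a, Wnt4, Wnt11 and Fzd4 were not (0.0556, 0.0505, 0.248, 0.368 and 0.491). The authors' deposited table held the same 12 calls at E16.5 and 2 more, Wnt7b and Fzd6, both lower in mutants.

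At E16.5, Ror2, Fzd9, Wnt2, Fzd2 and Wnt5a were called higher, and Wnt9a lower, in every alternative tried. Leaving out Fzd2 and Wnt5a, the stretches just upstream of Ror2, Fzd9, Wnt2 and Wnt9a are shown. Each is the 250 bases before the start of the gene in RefSeq on build GRCm38.p6, given 5′ to 3′ on the gene's own strand; 25 of the 35 genes had an entry. Capitals mark the GC box GGGCGG on either strand, a letter string that 32.7% of 32817 such stretches hold. Ror2 is chr13:53286125-53286374 on the minus strand, Fzd9 is chr5:135251048-135251297 on the minus strand, Wnt2 is chr6:18030446-18030695 on the minus strand, and Wnt9a is chr11:59306680-59306929 on the plus strand.
Ror2: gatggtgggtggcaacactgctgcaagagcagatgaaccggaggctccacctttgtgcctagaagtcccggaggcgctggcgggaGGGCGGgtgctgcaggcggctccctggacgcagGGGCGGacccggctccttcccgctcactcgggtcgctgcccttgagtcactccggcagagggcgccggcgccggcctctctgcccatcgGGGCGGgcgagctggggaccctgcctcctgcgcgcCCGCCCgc
Fzd9: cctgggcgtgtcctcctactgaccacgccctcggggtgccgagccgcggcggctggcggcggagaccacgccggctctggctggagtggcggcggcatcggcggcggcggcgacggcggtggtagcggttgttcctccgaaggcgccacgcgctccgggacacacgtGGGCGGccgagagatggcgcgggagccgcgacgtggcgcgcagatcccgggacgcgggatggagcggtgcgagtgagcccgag
Wnt2: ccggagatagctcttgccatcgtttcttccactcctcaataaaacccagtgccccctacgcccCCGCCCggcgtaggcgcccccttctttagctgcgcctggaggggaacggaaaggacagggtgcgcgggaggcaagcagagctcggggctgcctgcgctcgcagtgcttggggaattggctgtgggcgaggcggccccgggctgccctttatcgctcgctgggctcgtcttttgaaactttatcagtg
Wnt9a: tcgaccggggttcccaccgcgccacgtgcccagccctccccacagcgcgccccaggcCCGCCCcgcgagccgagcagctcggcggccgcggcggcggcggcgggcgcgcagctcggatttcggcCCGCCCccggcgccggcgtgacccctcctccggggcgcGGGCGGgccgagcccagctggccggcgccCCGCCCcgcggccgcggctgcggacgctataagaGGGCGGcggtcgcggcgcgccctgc
The GC content was 73.2% for Ror2, 76.4% for Fzd9, 63.6% for Wnt2 and 84.4% for Wnt9a. The GC box occurred 4 times for Ror2, 1 time each for Fzd9 and Wnt2, and 5 times for Wnt9a, which moved the other way. On either strand, none of the 4 held CTTTGNT, the letters of the TCF/LEF factors of canonical Wnt signalling (in 5246 of the 32817 stretches), CCGGAA, those of the ETS factors downstream of FGF (in 3944), or TGTGGT, those of the RUNX factors of bone (in 4608). The GC box was added to the search after the other strings gave no match, and a match of letters is not a binding site.

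Whether the effect of genotype itself changed with age was tested in 1 fit of all 12 samples. It passed for 13 of 33 genes, or 39.4%, where 22.3% of all 17550 genes tested passed (9.97% higher and 12.4% lower). For 8 genes the mutant-over-control ratio was higher at E16.5 than at E14.5 (Wnt2, Wnt2b, Wnt7a, Fzd2, Fzd5, Fzd9, Lrp5 and Ror2), and for 5 it was lower (Wnt4, Wnt5a, Wnt7b, Fzd6 and Fzd10). Those of Ror2, Fzd9, Wnt2, Wnt7b and Fzd6 held without any 1 library; without E16.5 mutant libraries 1 and 3 only Ror2, Fzd9 and Wnt2 did of the 13, and Wnt16 was added.

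**Figure D2:**
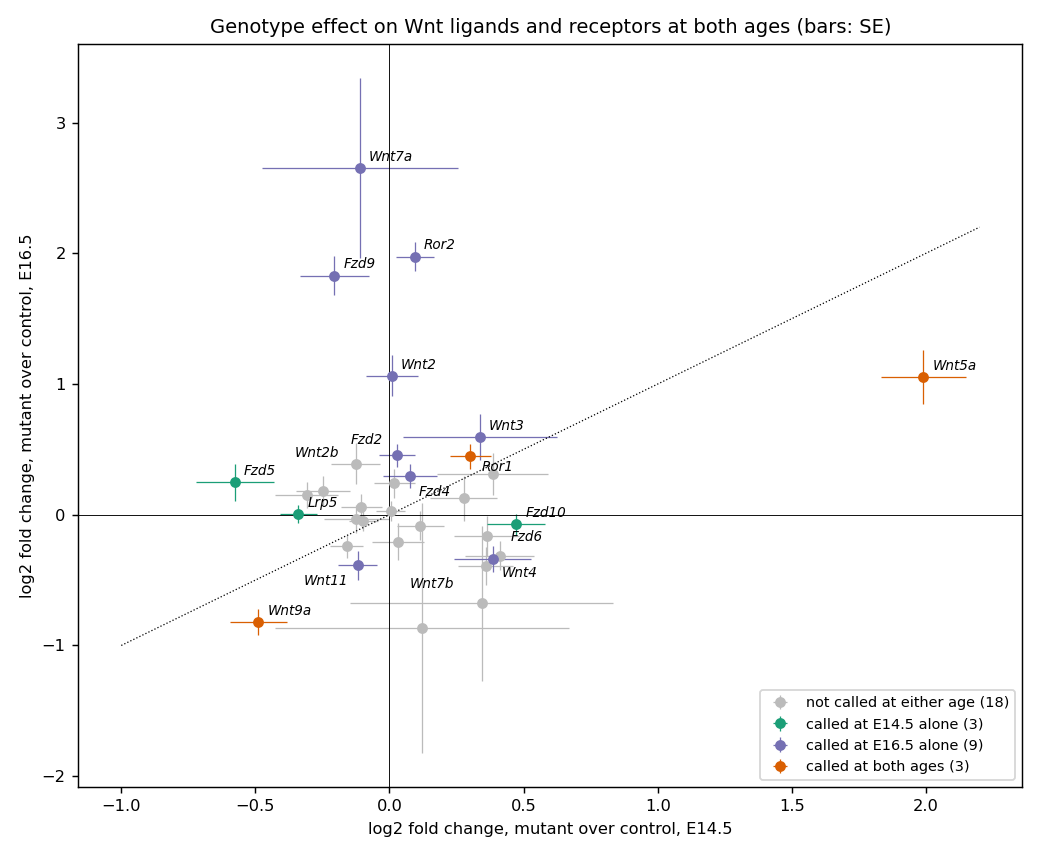
Log2 fold change of mutant over control at E14.5 (horizontal axis) and at E16.5 (vertical axis) for the 33 genes tested, with SE bars; colours mark the ages at which a gene was called, names mark genes called at either age or differing between ages, and the dotted line marks equal effects. Wnt5a lies to the far right, Wnt7a, Ror2 and Fzd9 lie high near 0 on the horizontal axis, and Wnt9a is negative on both.

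Ror2 and Fzd9 changed with age in opposite directions in the genotypes. Ror2 was higher at E16.5 than at E14.5 in mutants (log2 change 0.93) and lower at E16.5 than at E14.5 in controls (log2 change -0.93), both called (edgeR adjusted p = 7.34e-06 and 3.76e-06). The mutant means were 175 ± 25.0 CPM at E16.5 and 92.0 ± 7.37 CPM at E14.5, and the control means 45.3 ± 3.87 CPM at E16.5 and 86.2 ± 5.05 CPM at E14.5 (SD, n = 3 each). Fzd9 likewise was higher at E16.5 in mutants (log2 change 0.72) and lower at E16.5 in controls (log2 change -1.29; edgeR adjusted p = 0.00136 and 6.65e-06), although the rise in mutants missed the threshold without E16.5 mutant libraries 1 and 3 (log2 change 0.45, edgeR adjusted p = 0.0530). Wnt2 fell with age in both, by 1.29 on the log2 scale in mutants and by 2.33 on the log2 scale in controls. Wnt5a did not pass in mutants (log2 change 0.14, edgeR adjusted p = 0.601), with 204.5 ± 64.4 CPM at E16.5 and 185 ± 19.3 CPM at E14.5, and rose in controls (log2 change 1.10, edgeR adjusted p = 0.000622), with 99.7 ± 9.85 CPM at E16.5 and 46.6 ± 11.6 CPM at E14.5.

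Age moved most of the family. In mutants 26 of 33 genes changed between E14.5 and E16.5 (78.8%, against 51.6% of all genes, 27.2% higher and 24.4% lower), 15 higher and 11 lower at E16.5. In controls 29 of 33 did (87.9%, against 66.4% of all genes, 34.3% higher and 32.1% lower), 14 higher and 15 lower. The largest rises were in ligands: Wnt4 by 2.64 in mutants and 3.38 in controls on the log2 scale, Wnt3 by 2.57 and 2.34, Wnt10a, a ligand of teeth and skin appendages, by 2.29 and 2.22, and Wnt7b by 2.03 and 2.80. All 10 Frizzleds changed with age in both genotypes. Fzd6, known for orienting hairs, rose (log2 change 1.25 in mutants and 1.99 in controls), as did Fzd3, Fzd5 and Fzd10, while Fzd1, Fzd2, Fzd4, Fzd7 and Fzd8 fell. Wls was called in neither, at 224 ± 21.7 CPM in E16.5 mutants and 241 ± 10.8 CPM in E14.5 mutants, and at 235 ± 6.09 CPM in E16.5 controls and 257.5 ± 8.59 CPM in E14.5 controls.

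Wnt4, Wnt6, Wnt7b, Fzd6 and Fzd10, 5 of the 13 genes that rose with age in both genotypes, were lowest at each age in the library with the lowest epithelial marker sum. The 12 oral and basal epithelial markers summed to 1979, 1886 and 1974 CPM in E14.5 mutants 1, 2 and 3, against 1128, 1859 and 1573 CPM in E14.5 controls 1, 2 and 3. At E16.5 they summed to 8203, 13610 and 11170 CPM in mutants, against 13590, 13250 and 13550 CPM in controls, with none at 0 in any group. Of the 12, 2 were called higher at E14.5 and 4 lower at E16.5 in mutants. The lowest libraries were E14.5 control 1 and E16.5 mutant 1. Of the 13 genes, 7 were lowest in that E14.5 control, 9 were lowest in that E16.5 mutant, and 2, Wnt3 and Fzd5, in neither. How many of all genes were lowest in these libraries was not counted, so the tally is not read as a trait of the family.

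Wnt7b, an epithelial ligand, had 23.2, 23.7 and 25.0 CPM in E14.5 mutants, against 15.6, 20.9 and 19.6 CPM in E14.5 controls. At E16.5 it had 72.3, 119 and 103 CPM in mutants, against 128, 130.4 and 134 CPM in controls, so that its mutants lay above the controls at E14.5 and below them at E16.5. Fzd6 did likewise, with 49.8, 49.2 and 53.3 CPM in E14.5 mutants, against 29.1, 44.0 and 41.5 CPM in E14.5 controls. At E16.5 it had 99.2, 134 and 128 CPM in E16.5 mutants, against 148, 143 and 165 CPM in E16.5 controls. Wnt4 had 41.4, 40.9 and 41.7 CPM in E14.5 mutants, against 23.2, 38.1 and 33.7 CPM in E14.5 controls, and Fzd10 had 39.1, 46.2 and 48.0 CPM in E16.5 mutants, against 48.4, 45.98 and 48.1 CPM in E16.5 controls.

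Set against 1000 CPM of the epithelial sum, a ratio chosen after the values were seen, Wnt4 gave 20.9, 21.7 and 21.1 CPM in E14.5 mutants, against 20.5, 20.5 and 21.4 CPM in E14.5 controls. In E16.5 mutants it gave 26.4, 21.04 and 24.2 CPM, against 24.0, 24.1 and 25.5 CPM in E16.5 controls, so that the groups overlapped at both ages. Fzd6 gave 25.2, 26.1 and 27.0 CPM in E14.5 mutants, against 25.8, 23.6 and 26.4 CPM in E14.5 controls. At E16.5 it gave 12.1, 9.88 and 11.5 CPM in E16.5 mutants, against 10.9, 10.8 and 12.2 CPM in E16.5 controls, again with overlap. Wnt7b overlapped at E14.5 and gave 8.81, 8.71 and 9.25 CPM in E16.5 mutants, all below the 9.38, 9.84 and 9.86 CPM of E16.5 controls. Fzd10 overlapped at both ages. Wnt6 gave 2.215, 2.24 and 2.62 CPM in E16.5 mutants, all above the 1.78, 1.72 and 1.88 CPM of E16.5 controls. Wnt3, Wnt3a and Wnt10a were likewise higher in all E16.5 mutants, while Wnt11, Wnt16, Fzd3 and Fzd5 overlapped at that age. At E14.5, Wnt10a, Wnt11 and Fzd5 were lower in all mutants. The ratios are descriptions with no test, and the part of epithelial content in the genotype and age results of these genes was not tested.

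**Figure D3:**
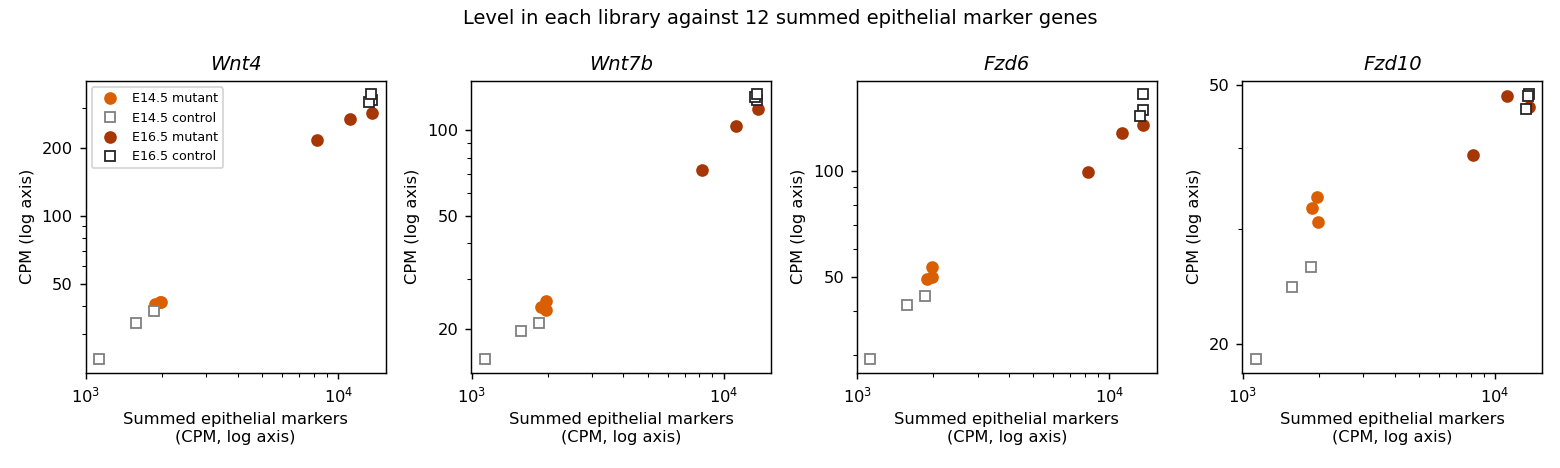
Level of Wnt4, Wnt7b, Fzd6 and Fzd10 (vertical, CPM, log axes) against the summed CPM of 12 oral and basal epithelial markers (horizontal, log axes), 1 point a library, with filled circles for mutants and open squares for controls. E14.5 control 1 and E16.5 mutant 1, with 1128 and 8203 CPM of the markers, lie lowest within their ages in all 4 panels. The 4 genes shown are among those already named for being lowest in both libraries, so this position is not a separate result. Wnt3 and Fzd5, lowest in neither, are not shown.

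Of the genes that differed between ages without a call at E16.5, Wnt2b had 10.2, 10.1 and 10.2 CPM in E14.5 mutants, against 11.6, 10.2 and 11.4 CPM in E14.5 controls. It had 6.35, 4.83 and 5.20 CPM in E16.5 mutants, against 4.24, 3.99 and 4.51 CPM in E16.5 controls. Fzd5 had 43.7, 32.9 and 43.6 CPM in E16.5 mutants, against 30.1, 32.7 and 40.2 CPM in E16.5 controls. Its 2 highest values were in mutant libraries 1 and 3, those with the retinal genes, and without them the E16.5 log2 fold change was -0.05. Lrp5 had 179.9, 187 and 194 CPM in E16.5 mutants, against 181, 185 and 201 CPM in E16.5 controls, so its difference at E14.5 was not seen at E16.5.

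The remaining genes were called for genotype at neither age. The co-receptor Lrp6 lay at 222 ± 19.3 CPM in E14.5 mutants, against 238 ± 17.9 CPM in E14.5 controls, and at 180.1 ± 17.8 CPM in E16.5 mutants, against 176 ± 20.3 CPM in E16.5 controls (SD, n = 3 each). Ryk, an alternative receptor without an active kinase, had 195 ± 17.1 CPM in E16.5 mutants, against 194 ± 6.40 CPM in E16.5 controls. Both were well expressed, and their group means lay within 1 SD of each other at E16.5. Fzd8 had 26.1 ± 3.22 CPM in E14.5 mutants, against 31.0 ± 2.87 CPM in E14.5 controls. At E16.5 it had 20.3 ± 2.39 CPM in E16.5 mutants, against 18.2 ± 1.88 CPM in E16.5 controls. Of the less abundant ligands, Wnt10b had 11.5 ± 0.839 CPM in E16.5 mutants, against 10.5 ± 0.647 CPM in E16.5 controls, and Wnt5b had 8.71 ± 0.747 CPM, against 9.41 ± 0.407 CPM.

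To compare genes with each other, CPM were divided by the length of all exons of the gene in GENCODE M21, in kilobases (the annotation the authors counted on is not given in the sources used here). In E14.5 mutants Wnt5a ranked first of the ligands with 26.3 ± 2.74 CPM per kb, followed by Wnt4 with 9.85 ± 0.0896 and Wnt6 with 8.40 ± 0.620, none of them overlapping. In E14.5 controls no ligand led: Wnt4, Wnt9a, Wnt6, Wnt11, Wnt5a and Wnt2 had mean levels of 7.54, 7.49, 6.94, 6.74, 6.62 and 6.16 CPM per kb, each overlapping the next. In E16.5 mutants Wnt4 led with 61.4 ± 8.71 CPM per kb, before Wnt5a with 29.1 ± 9.16 and Wnt7b with 21.3 ± 5.11, of which the last 2 overlapped. In E16.5 controls Wnt4 also led, with 78.8 ± 3.30 CPM per kb, then Wnt7b with 28.3 ± 0.656, Wnt11 with 21.1 ± 1.03, Wnt10a with 17.9 ± 0.722 and Wnt5a with 14.2 ± 1.40, with no overlap between neighbours.

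As a share of all ligand levels per length, Wnt5a made up 30.8 ± 2.45% in E14.5 mutants, against 10.4 ± 2.55% in E14.5 controls, and 16.1 ± 2.87% in E16.5 mutants, against 7.42 ± 0.544% in E16.5 controls. The sum of all ligands per length was 85.4 ± 2.15 CPM per kb in E14.5 mutants, against 63.8 ± 3.10 in E14.5 controls, and 177 ± 30.6 in E16.5 mutants, against 191 ± 4.76 in E16.5 controls. The Frizzled sum differed less, at 216 ± 12.9 CPM per kb in E14.5 mutants, against 218 ± 11.5 in E14.5 controls, and 180.1 ± 16.0 in E16.5 mutants, against 172 ± 14.0 in E16.5 controls, with overlapping groups at both ages. Fzd2 led the Frizzleds at E14.5 in both genotypes, with 83.1 ± 4.19 CPM per kb in mutants and 81.4 ± 5.51 in controls. At E16.5 Fzd2 led in mutants with 43.9 ± 4.08 CPM per kb, ahead of Fzd1 with 37.1 ± 3.91. In E16.5 controls Fzd1 led with 44.6 ± 3.46 CPM per kb, ahead of Fzd6 with 34.7 ± 2.59 and Fzd2 with 32.6 ± 2.89, which overlapped each other.

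**Figure D4:**
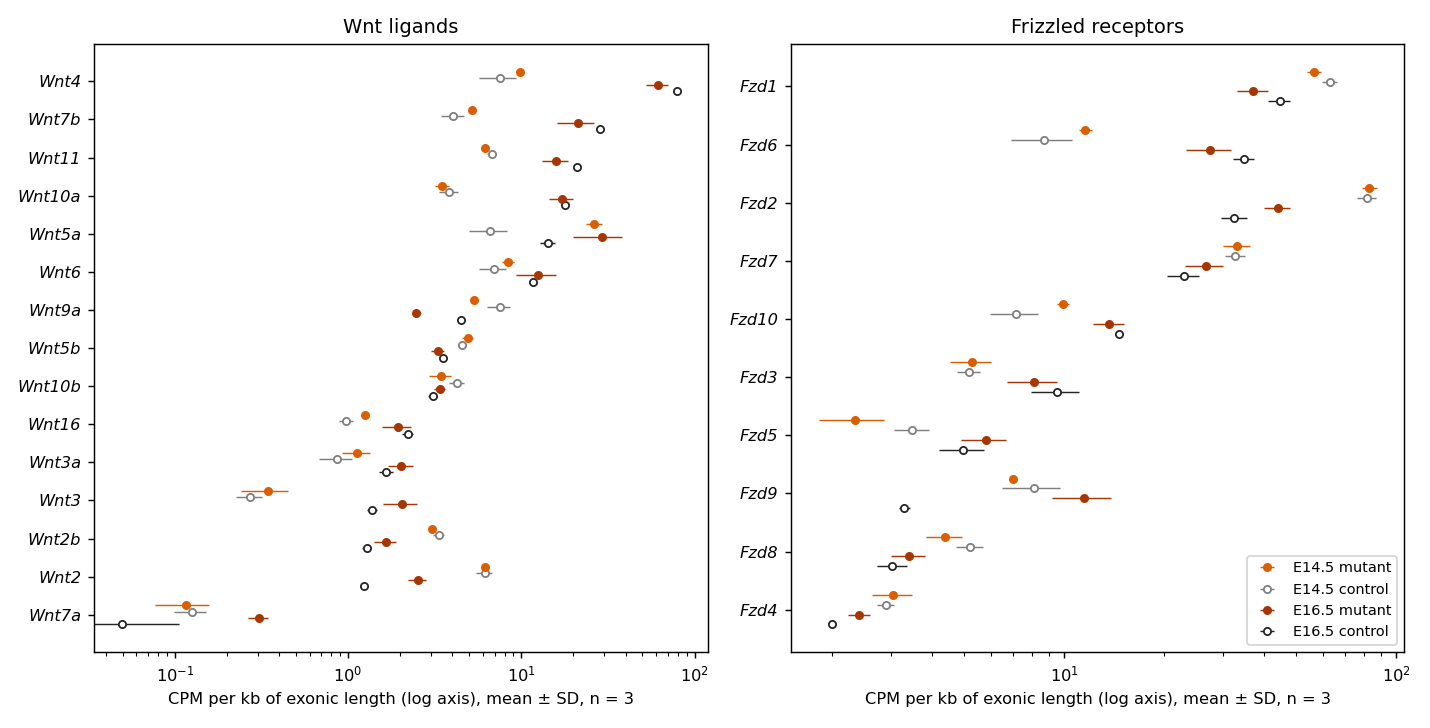
Level per kilobase of exonic length (horizontal, log axes; mean and SD of 3 libraries) of the 15 ligands above 1 CPM in some library and of the 10 Frizzleds, ordered by the E16.5 control level; filled points are mutants and open points controls. Wnt5a at E14.5 is 26.3 CPM per kb in mutants and 6.62 in controls, and Fzd9 at E16.5 is 11.5 in mutants and 3.30 in controls.

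The rest of the pathway was described by 6 lists, also counted at E16.5 without mutant libraries 1 and 3, an alternative added after the data were seen. With all libraries, the background shares of called genes were 7.52% at E14.5 and 27.9% at E16.5. These shares do not hold for the counts without mutant libraries 1 and 3, where fewer of all genes were called. No share over all genes is set beside those counts, here or for the ligands and receptors, so they are descriptions only. Among genes of Wnt secretion and handling outside the cell, 0 rose and 1 of 8 fell at E14.5: Notum, the enzyme that strips the lipid from Wnts (log2 fold change -0.79, edgeR adjusted p = 0.00227). At E16.5, 4 rose and 1 fell. Tmem88, an inhibitor of Dishevelled, rose by 0.91, Trabd2b by 0.75 and the glypican Gpc6 by 0.63 on the log2 scale, and Porcn, which adds the lipid to Wnts, fell by 0.44 (edgeR adjusted p = 0.00765, 0.000771, 0.00774 and 0.0192). Without mutant libraries 1 and 3, 1 rose and 1 fell, and Tmem88 and Gpc6 were not called (edgeR adjusted p = 0.0967 and 0.0921). The list medians were -0.16 at E14.5 and 0.28 at E16.5 on the log2 scale. Porcn lay at 18.01, 16.1 and 14.7 CPM in E16.5 mutants, against 24.1, 23.0 and 20.2 CPM in E16.5 controls.

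Of 9 genes listed as R-spondins and their receptors, Znrf3 and Rnf43 among them, Lgr5 rose (log2 fold change 0.66) and Rspo1 fell (-0.69) at E14.5 (edgeR adjusted p = 0.000351 and 6.66e-05). At E16.5, Rspo4 (log2 fold change 2.91), Rspo2 (1.96) and Lgr5 (0.99) rose and Rspo1 (-0.50) fell (edgeR adjusted p = 0.00189, 0.00224, 0.00213 and 0.00206). Rspo2 had 12.3, 5.17 and 8.11 CPM in E16.5 mutants, against 2.64, 1.80 and 2.26 CPM in E16.5 controls, and Rspo4 had 1.52, 0.720 and 1.22 CPM, against 0.143, 0.0901 and 0.235 CPM. Without mutant libraries 1 and 3 the same 4 genes were called, with a log2 fold change of 1.22 for Rspo2 and 2.2025 for Rspo4 (edgeR adjusted p = 0.00649 and 0.0485). The list medians were -0.10 at E14.5 and -0.14 at E16.5 on the log2 scale. For both Rspo2 and Rspo4, mutant libraries 1 and 3 were the higher ones and all 3 mutants were above all controls.

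Of 26 genes of canonical transduction, 1 rose and 1 fell at E14.5, and 6 rose and 0 fell at E16.5 (median log2 fold change -0.05 and 0.05). Ctnnb1, the gene of beta-catenin, was called at E14.5 with a log2 fold change of 2.97 (edgeR adjusted p = 1.09e-07). It lay at 1873, 1792 and 1845 CPM in E14.5 mutants, against 212, 230.5 and 262 CPM in E14.5 controls, and at 1567 to 1805 CPM in E16.5 mutants, against 1846 to 1865 CPM in E16.5 controls. The E14.5 controls were thus the libraries that stood apart from the other 9. Tcf7, a TCF factor, was lower in mutants at E14.5 (log2 fold change -0.68) and higher at E16.5 (0.61; edgeR adjusted p = 0.000676 and 0.00244). Apc2, Tle2 and Lef1 also rose at E16.5 (log2 fold change 1.36, 0.94 and 0.71; edgeR adjusted p = 0.0122, 0.00106 and 0.0357). Apc2 had 28.9, 11.1 and 23.2 CPM in E16.5 mutants, against 8.18, 7.45 and 9.56 CPM in E16.5 controls, with libraries 1 and 3 the highest. Without those libraries 2 genes of the list rose, Tcf7 and Tle2, and Apc2 and Lef1 were not called (edgeR adjusted p = 0.145 and 0.299).

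Of 25 genes of planar polarity and other routes without beta-catenin, those on which Ror2 and Wnt5a act, 1 rose and 2 fell at E14.5, and 6 rose and 3 fell at E16.5 (median log2 fold change -0.02 and 0.01). The polarity gene Prickle2 rose at both ages (log2 fold change 0.60 and 0.62; edgeR adjusted p = 0.0105 and 0.00465). Nfatc1 and Daam2 fell at E14.5 (-0.34 and -0.23; edgeR adjusted p = 0.0314 and 0.0482). At E16.5 Celsr3 and Camk2b rose (3.57 and 0.98; edgeR adjusted p = 0.0119 and 0.0294) and Intu, which acts in cilium formation, fell (-0.91; edgeR adjusted p = 4.19e-05). Celsr3 had 10.9, 0.880 and 5.59 CPM in E16.5 mutants 1, 2 and 3, against 0.537, 0.270 and 0.692 CPM in E16.5 controls, so its rise lay in the libraries with the retinal genes. Without them 1 gene of the list rose and 2 fell, Intu among these, and Celsr3, Camk2b and Prickle2 were not called at E16.5 (edgeR adjusted p = 0.356, 0.278 and 0.0711).

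Of 15 secreted antagonists and their partners, 1 rose and 2 fell at E14.5, and 6 rose and 2 fell at E16.5 (median log2 fold change -0.11 and 0.38). Dkk1, which blocks Lrp5 and Lrp6, was lower in mutants at E14.5 (log2 fold change -1.08) and higher at E16.5 (0.86; edgeR adjusted p = 1.74e-05 and 0.00409). It had 21.4, 25.1 and 22.2 CPM in E14.5 mutants, against 49.7, 49.4 and 46.1 CPM in E14.5 controls. At E16.5 it had 6.57, 5.83 and 7.06 CPM in E16.5 mutants, against 3.22, 3.51 and 4.15 CPM in E16.5 controls. Dkk2 rose at E14.5 (0.31; edgeR adjusted p = 0.0201), Cer1 fell at both ages (-1.53 and -2.40; edgeR adjusted p = 0.0358 and 0.0137) and stayed under 1 CPM throughout, and Sfrp5 and Frzb rose at E16.5 (1.67 and 0.97; edgeR adjusted p = 0.0416 and 0.000286). Without E16.5 mutant libraries 1 and 3, 3 rose, Dkk1, Frzb and Sfrp5, and 1 fell, and Cer1 was not called (edgeR adjusted p = 0.124).

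Of 16 canonical targets, 2 rose and 5 fell at E14.5, and 7 rose and 2 fell at E16.5. Myc, also a target of many other signals, rose at both ages (log2 fold change 1.89 and 1.49; edgeR adjusted p = 0.000108 and 0.000149), as did Lgr5, and Notum and Tcf7 were among the 5 that fell at E14.5, all 3 given above. Sp5 rose at E16.5 (1.12; edgeR adjusted p = 0.0205). Axin2, the target most often used as a readout and named here after its values were seen, had 58.4 ± 1.74 CPM in E14.5 mutants, against 61.4 ± 2.51 CPM in E14.5 controls. At E16.5 it had 44.6 ± 4.56 CPM in E16.5 mutants, against 57.4 ± 1.44 CPM in E16.5 controls (SD, n = 3 each), and was among the 2 that fell at E16.5. The list medians were -0.09 at E14.5 and 0.24 at E16.5 on the log2 scale. Without mutant libraries 1 and 3, 4 rose, Myc, Lgr5 and Tcf7 among them, and 2 fell, Axin2 among them, while Sp5 was not called (edgeR adjusted p = 0.248) and the E16.5 median was -0.06.

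In gene order on GRCm38.p6, 4 pairs of these ligands have no protein-coding gene between them: Wnt6 with Wnt10a, Wnt3a with Wnt9a, Wnt9b with Wnt3, and Wnt10b with Wnt1. Wnt6 and Wnt10a both rose with age in both genotypes. At E16.5 Wnt9a fell and Wnt3 rose, while Wnt3a (log2 fold change 0.31) and Wnt9b (-0.68) were not called (edgeR adjusted p = 0.184 and 0.440), and with age Wnt9a fell while Wnt3a rose in both genotypes.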

How the data were processed

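RNA-seq read counts per gene were deposited by the authors for 12 libraries, with a table of the authors' DESeq2 comparisons that holds log2 fold changes and adjusted p-values. Per the submitters' processing notes, HISAT2, featureCounts and the mouse build mm9 were used; versions, annotation and strand handling are not given in the sources used here, so reads of overlapping antisense genes may be included. Deposited tables also held 24 per-sample columns that were not used.

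The deposited counts were scaled by TMM and fitted with edgeR 4.0.16 in R 4.3.3 (quasi-likelihood test, filterByExpr, Benjamini-Hochberg adjustment over all genes). Each age was fitted on its 6 libraries, and the difference between ages and the age effects on all 12. CPM per kb used GENCODE M21 exon lengths. Floors cover counting error only. The SDs are between libraries, and the SEs come from the quasi-likelihood test, which uses the scatter between libraries. The fits were tested on simulated data. The gene family and the lists were chosen with earlier results of these data known; within the family, membership followed the symbol. Named were the 35 members and, of each list, up to 4 called genes with the largest changes at each age.

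Deviations of same-numbered E16.5 mutant and control libraries from their group means correlated at r = 0.105, 0.161 and 0.222 over 17550 genes. Each was over the limit of 0.1, so these numbers were treated as possible pairs, from the data and not from the labels. The main fits had no term for pairs, and the replicate block was run as an alternative. At E14.5 the values were 0.0193, 0.0445 and 0.160. Over the 13463 genes with a mean log2 CPM above 1 they were 0.196, 0.241 and 0.695 at E16.5. At E14.5 they were 0.0783, 0.127 and 0.559 over those genes, and replicate 1 was under the limit in both sets. Replicates numbered 3 correlated most in each pairing of groups. Between the ages they gave 0.61 in mutants and 0.56 in controls over those genes. The correlations therefore do not tell pairs from a feature that replicates numbered 3 share. Alternatives were DESeq2 1.42.0, other size factors and filters, a replicate block, a term for replicates numbered 3, a fit of all samples, and leaving out libraries.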

Additional observations from a re-analysis of the deposited data

Results flagged for a closer look

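In the edgeR fit of all 12 samples, the test of the difference itself found that the genotype effect (log2 fold change of mutant over control) at E16.5 minus that at E14.5 passed the threshold for 13 ligands and receptors. The differences above 0 were 2.74 for Wnt7a, 2.01 for Fzd9, 1.86 for Ror2, 1.03 for Wnt2, 0.80 for Fzd5, 0.49 for Wnt2b, 0.40 for Fzd2 and 0.32 for Lrp5 (edgeR adjusted p = 0.0325, 5.02e-05, 7.75e-06, 0.000525, 0.0258, 0.0417, 0.0287 and 0.0298). Those below 0 were -0.96 for Wnt5a, -0.77 for Wnt7b, -0.75 for Fzd6, -0.74 for Wnt4 and -0.57 for Fzd10 (edgeR adjusted p = 0.0412, 0.0184, 0.0175, 0.0205 and 0.0185). On leaving out 1 library at a time, Wnt5a lost its call in 9 of 12 cases, Wnt2b in 8, Wnt7a and Fzd5 in 6 each, Wnt4, Fzd2 and Lrp5 in 2 each and Fzd10 in 1.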

How the results depend on the processing

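No value changed direction while called. At E14.5, where 6 genes were called, the replicate block gave 11. It added Wnt4, Wnt7b, Fzd1, Fzd6 and Fzd8 (edgeR adjusted p = 0.0425, 0.0152, 0.0132, 0.0190 and 0.0206). A term for replicates numbered 3 gave 10, and leaving out 1 library gave 1 to 9. The labels do not say at either age that the numbers pair libraries. At E16.5, where 12 were called, 7 were called without mutant libraries 1 and 3, and 7 to 16 on leaving out 1 library. For the difference between ages, with 13 calls, 4 were called without those libraries, and 8 to 14 on leaving out 1 library; the replicate block gave 19, adding Wnt9a, Wnt10b, Wnt16, Fzd3, Fzd7 and Fzd8, and the term for replicates numbered 3 gave 18. DESeq2 called 9, 14 and 15 in these comparisons. Over all genes at E14.5, 1252 were called, against 2120 with DESeq2, 3155 with the replicate block, 2938 with the term for replicates numbered 3, and 526 to 1412 on leaving out 1 library. At E16.5, 4793 were called, against 3079 without control 1, 2781 without control 2 and 2496 without mutant libraries 1 and 3. For the difference, 3921 were called, against 6055 with the replicate block and 2017 without those libraries. The cause was not tested; fewer samples enter the fits that leave libraries out. Called under each alternative run were Wnt5a at E14.5, 6 genes at E16.5, and Fzd9, Ror2 and Wnt2 for the difference. Depth limits Wnt1, Wnt7a, Wnt8a, Wnt8b and Wnt9b.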

Other observations

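Low counts were even more often than odd ones. Of counts from 1 to 20, 68.6 to 73.1% per library were even, against 50.4 to 51.5% of counts above 20. Among the 405 values above 0 of the ligands and receptors, 212 were even. The cause was not tested.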
